A study of Mus musculus with 18 samples.

Results

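H3K9me3 and H3K27ac were set against each other within wild type mouse embryonic fibroblasts (WT MEFs), from 1 list of ChIP-seq peaks per mark. On the autosomes the H3K9me3 list held 14273 peaks and the H3K27ac list 35402 peaks. An H3K9me3 peak was counted as meeting H3K27ac when it shared at least 1 bp with an H3K27ac peak. This held for 200 H3K9me3 peaks (1.40%) and 182 H3K27ac peaks (0.514%), which shared 201 regions and 93686 bp.

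The WT MEFs were of the C57BL/6 strain by their labels, given as C57BL/6J in the methods, and carried the Kap1 loxP/loxP alleles without excision. The Kap1 KO MEFs used beside them were, as described for their RNA, a stably growing knockout clone kept for many passages together with its non-excised counterpart. KAP1 and SETDB1 peaks came from Hepa 1.6, a mouse hepatoma line from a C57L tumour, and thus from another cell type. Every list stands for 1 library, so that no variation between cultures could be measured. The 6 lists held 107778 peaks in all. H3K27ac lay within 1 kb of a transcript start in 11 of 13 fibroblast marker genes, among them Col1a1, Vim and Twist1 but not Lum or Postn. The same held for 2 of 18 markers of other cell types, Krt8 and Pecam1, and for 55.4% of all autosomal protein-coding genes.

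H3K9me3 is a mark of repressed chromatin, laid down over retroelements, KZFP genes and imprinted loci by SETDB1, a methyltransferase that KAP1 (Trim28) brings to sites bound by KRAB zinc finger proteins. H3K27ac marks active promoters and enhancers. At the imprinting control regions of maternally methylated genes, the silent allele carries DNA methylation and H3K9me3 while the other allele is active, so that both marks can be recovered from a single locus.

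Windows of 300 bases around the middle of 6 shared regions are given here on the plus strand of mm9. These regions carry imprinted loci described further on, of which Grb10 is not shown, and, for Rrp15, the highest H3K9me3 score. Capitals mark TGCCGC or its reverse complement GCGGCA, the motif that the KRAB zinc finger protein ZFP57 binds in its methylated form.
Rrp15, chr1:188554905-188555204: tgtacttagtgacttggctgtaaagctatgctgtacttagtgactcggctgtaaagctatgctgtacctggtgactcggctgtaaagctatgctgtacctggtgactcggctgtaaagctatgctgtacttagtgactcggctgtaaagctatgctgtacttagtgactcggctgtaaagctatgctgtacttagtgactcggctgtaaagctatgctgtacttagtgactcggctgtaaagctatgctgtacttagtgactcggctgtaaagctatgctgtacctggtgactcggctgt
H13/Mcts2, chr2:152512290-152512589: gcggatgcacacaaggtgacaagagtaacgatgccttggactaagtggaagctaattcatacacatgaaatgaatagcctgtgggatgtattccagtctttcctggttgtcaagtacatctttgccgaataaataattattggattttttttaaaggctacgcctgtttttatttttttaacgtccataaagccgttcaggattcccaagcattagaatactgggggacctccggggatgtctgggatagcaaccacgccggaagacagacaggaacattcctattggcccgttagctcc
Trappc9, chr15:72640086-72640385: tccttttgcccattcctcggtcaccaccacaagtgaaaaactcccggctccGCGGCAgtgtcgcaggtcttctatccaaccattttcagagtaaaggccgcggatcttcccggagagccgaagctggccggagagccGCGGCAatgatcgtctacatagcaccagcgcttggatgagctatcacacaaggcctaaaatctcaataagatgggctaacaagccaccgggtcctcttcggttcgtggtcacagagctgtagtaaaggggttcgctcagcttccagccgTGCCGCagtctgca
Plagl1, chr10:12810409-12810708: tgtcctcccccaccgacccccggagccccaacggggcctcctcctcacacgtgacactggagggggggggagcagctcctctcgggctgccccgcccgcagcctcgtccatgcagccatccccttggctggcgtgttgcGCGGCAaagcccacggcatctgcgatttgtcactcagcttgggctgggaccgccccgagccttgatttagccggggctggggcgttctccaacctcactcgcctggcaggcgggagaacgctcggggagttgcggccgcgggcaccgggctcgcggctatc
Gnas/Nespas, chr2:174120697-174120996: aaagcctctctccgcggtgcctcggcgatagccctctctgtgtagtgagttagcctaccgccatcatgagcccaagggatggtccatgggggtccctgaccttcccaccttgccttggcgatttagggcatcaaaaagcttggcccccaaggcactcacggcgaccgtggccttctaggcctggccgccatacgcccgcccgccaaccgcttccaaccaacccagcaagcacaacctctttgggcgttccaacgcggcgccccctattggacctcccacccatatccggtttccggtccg
Slc38a4, chr15:96885045-96885344: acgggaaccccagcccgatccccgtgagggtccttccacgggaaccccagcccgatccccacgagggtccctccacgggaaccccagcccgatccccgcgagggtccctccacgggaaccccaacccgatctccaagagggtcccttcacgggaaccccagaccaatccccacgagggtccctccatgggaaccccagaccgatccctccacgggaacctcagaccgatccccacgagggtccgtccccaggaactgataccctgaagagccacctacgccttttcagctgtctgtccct
The Rrp15 window was a tandem repeat, and 97.4% of its bases were identical when it was shifted by 31 bases. The Slc38a4 window also repeated itself, with 73.0% identity at a shift of 37 bases, whereas in the other 4 windows the best shift of 10 to 100 bases gave between 31.1% and 36.1%. How the repeats bear on the mapping of reads was not tested. The motif occurred 3 times in the Trappc9 window and once in the Plagl1 window. It was absent from the letters of the H13/Mcts2, Gnas/Nespas and Slc38a4 windows. The windows of the Grb10 regions and of the other Trappc9 region, which are not shown, also lacked the motif.

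The first question was whether the 2 marks met more or less often than their number and width would give. H3K9me3 peaks were shuffled 10000 times within their chromosome, and each shuffle was compared with the fixed H3K27ac peaks. Shuffled lists had a mean of 706 H3K9me3 peaks over H3K27ac, with a lowest value of 609, against 200 observed. The observed number was thus 0.283-fold that of the shuffles (two-sided permutation p = 0.0002, the smallest that 10000 shuffles can give). Counted from the other mark, 182 H3K27ac peaks met H3K9me3 against a shuffle mean of 698, or 0.261-fold (permutation p = 0.0002). Shared bases came to 93686 against 364226, or 0.257-fold (permutation p = 0.0002). The shared bases made up 1.03% of all bases under H3K9me3, while H3K27ac peaks covered 3.41% of the autosomes.

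Fewer peaks met than in the mean of the shuffles on all 19 autosomes. The ratio ranged from 0 to 0.494 with a median of 0.253, and 18 of the 19 chromosomes had a Benjamini-Hochberg adjusted permutation p under 0.05. The exception was chromosome 18, where 0 of 81 H3K9me3 peaks met H3K27ac against a shuffle mean of 1.95 (adjusted permutation p = 0.28). Chromosome 6 had the highest ratio, with 25 H3K9me3 peaks against 50.6. Chromosome 8 had the largest number, 40 of its 2043 H3K9me3 peaks against 115 in the shuffles. Chromosomes 3 and 16 also had 0.

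**Figure D1:**
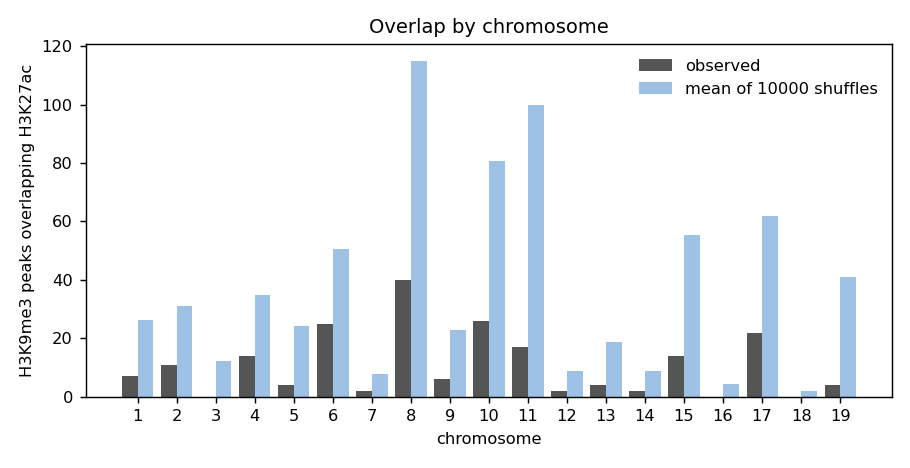
Number of H3K9me3 peaks that overlap H3K27ac in WT MEFs on each autosome (dark bars) beside the mean of 10000 shuffles within the chromosome (light bars). The observed bar is lower on all 19 chromosomes, with 40 against 115 on chromosome 8.

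Outside the overlap, the distance between the marks was compared in the same way. The median distance from an H3K9me3 peak to the closest H3K27ac peak was 23694 bp, against 41946 bp in the shuffles within the chromosome (0.565-fold, permutation p = 0.0002). Between 1 and 10000 bp from H3K27ac lay 3794 H3K9me3 peaks against 2888 in the shuffles (1.31-fold, permutation p = 0.0002). These 2 results depended on where a peak was allowed to go. When each H3K9me3 peak was moved at most 500000 bp from its own place, the shuffled median was 19892 bp and the observed distance was 1.19-fold of it (permutation p = 0.0002), with 0.941-fold the number of peaks between 1 and 10000 bp. When H3K27ac peaks were moved in place of H3K9me3, the median distance was 1.18-fold (permutation p = 0.0002) and the number of near peaks 1.02-fold (permutation p = 0.37). The overlap was below the shuffles in each case, at 0.187-fold with the local placement and 0.288-fold with H3K27ac moved.

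By distance, the shortage reached beyond the peaks themselves. Up to 1 kb from H3K27ac lay 342 H3K9me3 peaks, or 0.832-fold of the shuffles within the chromosome (permutation p = 0.001) and 0.573-fold of the local ones (permutation p = 0.0002). From 1 to 2 kb the 443 peaks were 1.20-fold of the first and 0.840-fold of the second. From 5 to 50 kb the observed numbers exceeded both kinds of shuffle, for example 3602 peaks between 20 and 50 kb, at 1.48-fold and 1.27-fold. Beyond 100 kb lay 2166 peaks, 0.448-fold of the chromosome shuffles and 0.882-fold of the local ones.

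**Figure D2:**
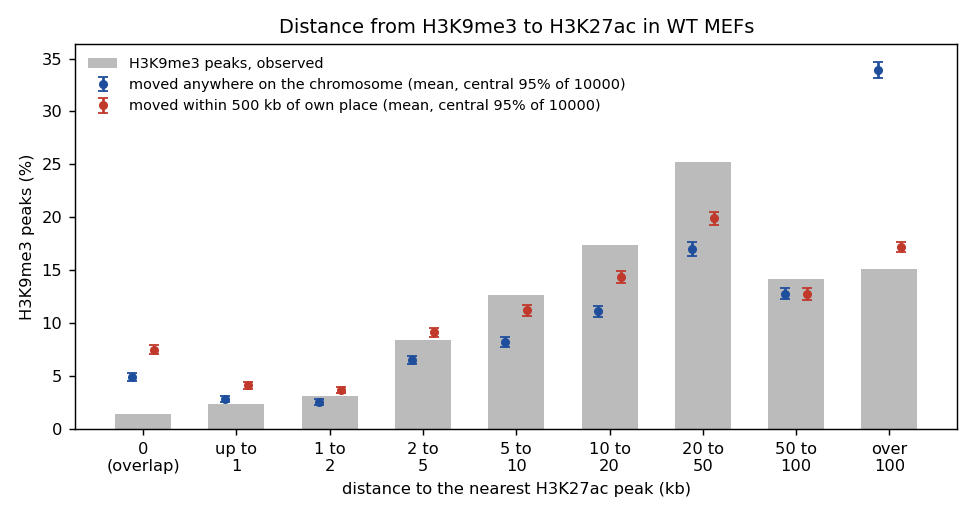
Share of the 14273 autosomal H3K9me3 peaks (%, bars) by distance to the nearest H3K27ac peak (kb), with the mean and central 95% of 10000 shuffles anywhere on the chromosome (blue) or within 500000 bp of each peak's own place (red). Overlap is 1.40% of peaks, below both kinds of shuffle, and the bar from 20 to 50 kb, at 25.2%, stands above both.

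Where the marks met, the shared stretch was short and often lay at the side of the H3K27ac peak. It measured 393 bp at the median and ranged from 3 to 3949 bp, which was a median of 78.9% of the H3K9me3 peak and 15.1% of the H3K27ac peak. In 76 regions the H3K9me3 peak lay inside the H3K27ac peak, in 4 the reverse held, and in 121 the peaks overlapped in part. The middle of the H3K9me3 peak fell outside the H3K27ac peak in 74 regions and inside it in 127. The limit of 1 bp divided close neighbours, since 22 regions shared under 100 bp while 28 H3K9me3 peaks stayed apart from H3K27ac by at most 100 bp.

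The score is the value that the peak caller gave, and it ranks peaks within a list. Meeting H3K9me3 peaks had a median score of 90.1, with an interquartile range of 64.3 to 155.4, and the other H3K9me3 peaks 80.1, with 59.1 to 124.3. Their median widths were 546 and 498 bp. The share that met H3K27ac was 0.981% of the 3569 H3K9me3 peaks with the lowest scores and 1.77% of the 3566 with the highest, which were also wider, with medians of 355 and 924 bp. Meeting and other H3K27ac peaks had median scores of 716 and 683 and widths of 2082 and 1983 bp. The H3K27ac score stands at a ceiling near 3100 in 9954 peaks of the list and in 57 of the 201 regions.

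**Figure D3:**
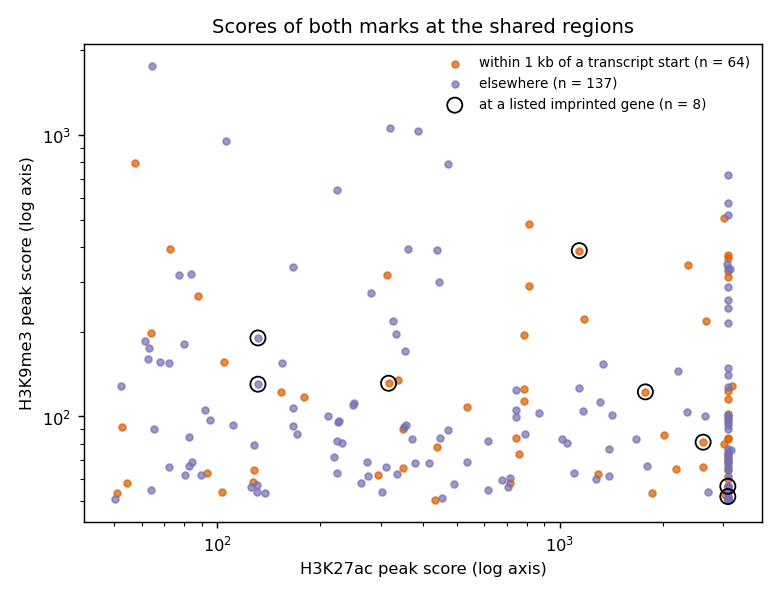
H3K9me3 score against H3K27ac score (both log axes) at the 201 shared regions, 64 of them within 1 kb of a transcript start (orange) and 137 elsewhere (violet), with the 8 at listed imprinted genes ringed. The column of points on the right is the ceiling of the H3K27ac score near 3100.

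H3K9me3 peaks that met H3K27ac lay at transcript starts more often than the rest of their list. Within 1 kb of a start were 64 of 200, or 32.0% (exact 95% Clopper-Pearson interval 25.6% to 38.9%), against 6.62% (6.22% to 7.05%) of the others, a difference of 25.4 percentage points (Newcombe interval 19.3 to 32.1). For H3K27ac peaks the same share was 38.5% in those that met H3K9me3 and 35.5% in the rest, and the interval of this difference ran from -3.84 to 10.2 points. These intervals cover the number of peaks counted and say nothing of the spread between cultures. They, and those given further on, also treat peaks as independent. Some H3K9me3 peaks met the same H3K27ac peak, as 200 of the first met 182 of the second, so the intervals can be too narrow. Of the 201 shared regions, 64 were at a transcript start, 59 in introns, 6 in coding exons, 1 in a UTR, 1 in another exon and 70 between genes.

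**Figure D4:**
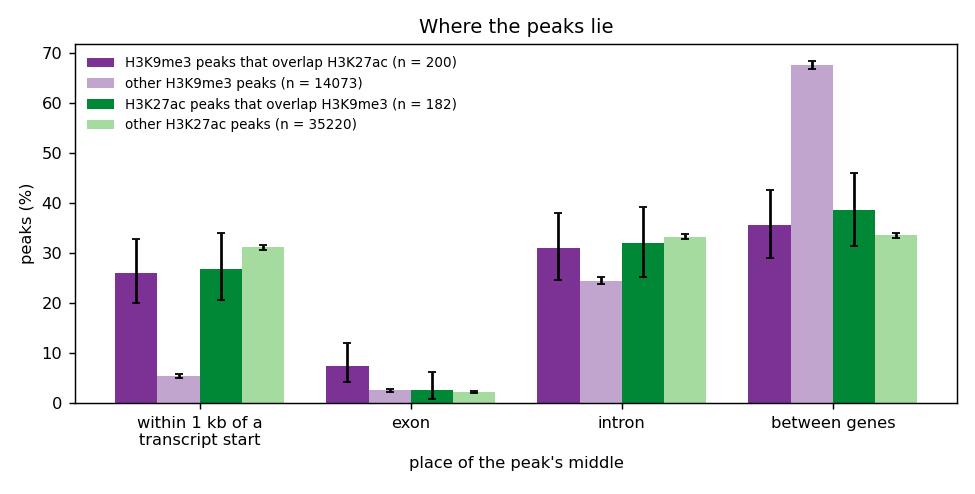
Share of peaks (%) by the place of their middle, for H3K9me3 peaks with (n = 200) and without (n = 14073) H3K27ac and for H3K27ac peaks with (n = 182) and without (n = 35220) H3K9me3, with exact 95% intervals. Of the H3K9me3 peaks without H3K27ac, 67.5% lie between genes, against 35.5% of those with it.

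The base composition of the shared regions was measured in the 300 bases around their middle. The interquartile range of GC content was 47.0% to 62.3% in shared regions, 43.7% to 52.0% in H3K9me3 peaks without H3K27ac and 43.7% to 57.0% in H3K27ac peaks without H3K9me3. The median ratio of observed to expected CpG was 0.293, 0.179 and 0.262. At transcript starts it was 0.711 in shared regions, 0.382 in H3K9me3 peaks alone and 0.672 in H3K27ac peaks alone. TGCCGC was found on either strand in 21 shared regions, or 10.4% (6.58% to 15.5%), in 6.67% of H3K9me3 peaks alone and in 8.58% of H3K27ac peaks alone. At transcript starts these shares were 20.3%, 19.6% and 17.9%.

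A region under both marks lay in 103 of 21281 autosomal protein-coding genes or within 1 kb of them, which is 0.484%. H3K9me3, with or without H3K27ac, touched 11.1% of genes by the same measure and stood within 1 kb of a transcript start in 2.77%, and H3K27ac stood at a start of 55.4%. Both marks were found in 1173 genes, with H3K27ac at a start and H3K9me3 in the gene or within 1 kb. These were 9.96% of the 11780 genes with H3K27ac at a start, beside 12.5% (1190 of 9501) of those without and 11.1% of all genes. In 1078 of the 1173 (91.9%) the marks shared no base. Among all 2363 genes with H3K9me3 by this measure, 103 had a region under both marks, and 98.6% of all H3K9me3 peaks met no H3K27ac. H3K9me3 at a start was found in 166 of 11780 genes with H3K27ac at a start (1.41%) and in 424 of 9501 genes without (4.46%).

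Among the gene lists examined, that of maternally methylated imprinted genes had the highest share of genes with a shared region. Of 34 symbols, 30 were annotated, and 8 of these (26.7%) had a shared region, beside 0.484% of all protein-coding genes. These were Gnas, Nespas, H13, Mcts2, Plagl1, Grb10, Slc38a4 and Trappc9. They fell on 8 regions, of which 6 were at a transcript start. H3K9me3 was found in 18 of the 30, beside 11.1% of all protein-coding genes. H3K27ac stood at a start of 21 of the 30, beside 55.4%. For each mark on its own, the share in the list was thus above that of all genes. Both marks were found in 12, and in 4 of these they shared no base, beside 1078 of 1173 among all genes. The list was drawn up with earlier results of these data known. Its genes are partly neighbours, such as Mcts2 inside H13 and Nespas beside Gnas, and each of these pairs shares a region, so that the 8 genes are not independent. Positions of imprinting control regions were not used, so whether a shared region lies at one was not tested.

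**Figure D5:**
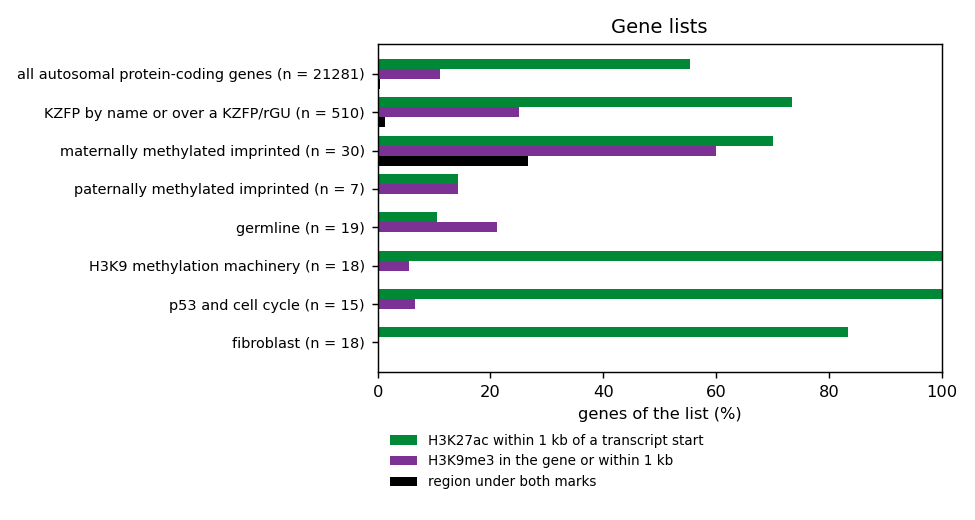
Share of genes (%) in each list that have H3K27ac within 1 kb of a transcript start (green), H3K9me3 in the gene or within 1 kb (violet) and a region under both marks (black). Maternally methylated imprinted genes reach 26.7% for both marks, all protein-coding genes 0.484%, and 5 of the lists 0.

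The imprinted region with the highest H3K9me3 score was at Mcts2, a retrogene expressed from the paternal allele that lies in an intron of H13. H3K9me3 (score 388.5) and H3K27ac (1141.18) shared 1309 bp at chr2:152511786-152513094, over the Mcts2 start. At Plagl1, which encodes a zinc finger growth regulator, 581 bp were shared at chr10:12810269-12810849 over a transcript start, with scores of 131.23 and 316.25. At Gnas and Nespas, the G-protein alpha subunit locus and its antisense transcript, the whole H3K9me3 peak of 741 bp (score 122.29) lay inside an H3K27ac peak at chr2:174120477-174121217. An intron of Trappc9, the gene that hosts the imprinted Peg13 transcript, held 2 regions, of 265 and 147 bp, where H3K9me3 peaks with scores of 190.18 and 130.22 reached into the ends of a single H3K27ac peak of 1039 bp (score 131.31).

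Grb10, which encodes an adaptor that restrains insulin signalling, had 2 narrow H3K9me3 peaks of 375 and 346 bp inside an H3K27ac peak of 5293 bp, at 402 and 38 bp from a transcript start. Their H3K9me3 scores of 56.47 and 51.92 were close to the lowest of the list, 50.01. Slc38a4, an amino acid transporter gene, had 510 bp at chr15:96884940-96885449 with scores of 81.02 and 2625.67. KAP1 of Hepa 1.6 cells covered 6 of the 8 imprinted regions, beside 51 of all 201 shared regions. In 5 of the 6 its score was 3100, and in 1 Grb10 region it was 132. The 8 regions are not independent, since the 2 at Trappc9, both with a KAP1 score of 3100, share an H3K27ac peak, as do the 2 at Grb10. The Slc38a4 region and the other Grb10 region had no KAP1 peak. In Kap1 KO MEFs 0 of the 8 had an H3K9me3 peak and 7 had an H3K27ac peak, the exception being Slc38a4. Of all 201 regions, 9 had the first and 149 the second.

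Imprinted genes with H3K9me3 but no shared region fell into separate groups. Airn, Blcap, Inpp5f and Peg10 had H3K27ac at a start and H3K9me3 elsewhere in or near the gene or, for Blcap and Inpp5f, within 1 kb of a start without touching. Mest, Nnat, Nap1l5 and Herc3 had H3K9me3 at a start and no H3K27ac there. Nnat lies within Blcap and Nap1l5 within Herc3, so that these pairs can share a peak. Cdh15 and Kcnq1 had H3K9me3 away from a start and no H3K27ac at one. Of the 7 paternally methylated genes, 1 (14.3%) had H3K9me3, the noncoding RNA gene Meg3, beside 11.1% of protein-coding genes, and 0 had a shared region.

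A zinc finger list took all 510 genes named Zfp or lying over a KZFP/rGU (KZFP-related genetic unit), of which 347 lay over a KZFP/rGU. Those named Zfp include genes without a KRAB domain. H3K27ac was found at a start of 375 (73.5%, beside 55.4% of all protein-coding genes) and H3K9me3 in 128 (25.1%, beside 11.1%). Both were found in 78, and in 71 of these they shared no base, beside 1078 of 1173 among all genes. The closest H3K9me3 and H3K27ac peaks of the 71 were apart by a median of 10502 bp, with an interquartile range of 6961 to 18227 bp, and those of the 1007 other genes of this kind by 12865 bp (4837 to 35605 bp). A shared region was found in 7 of the 510 genes (1.37%), beside 0.484% of all protein-coding genes. Among H3K9me3 peaks that met H3K27ac, 2 of 200 lay over one of the 560 KZFP/rGUs used here, which are not the whole set of the study, or 1.00% (0.121% to 3.57%), against 1.08% of the others, with an interval of the difference from -0.829 to 2.50 points.

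The 7 regions of this list differed in place and score. Zfp169 had the highest H3K9me3 score, 287.34, over a coding exon at chr13:48585537-48586494, together with H3K27ac at the ceiling score of 3100. At 2610305D13Rik the H3K27ac peak of 1482 bp (score 63.85) lay wholly inside an H3K9me3 peak of 4042 bp (197.65) over a transcript start. Zfp560 had 427 bp in a coding exon with scores of 71.92 and 219.35. Zfp423, which encodes a zinc finger factor without a KRAB domain, had 449 bp at 574 bp from a transcript start and H3K9me3 also in Kap1 KO MEFs (score 59.27). Gm9631, Zfp37 and 2610036A22Rik had H3K9me3 scores between 52.41 and 62.13. On chromosome 4, further shared regions lay between those of 2610036A22Rik (chr4:145586405-145587856) and 2610305D13Rik (chr4:147015504-147016985). These were at starts of the pseudogenes Gm13168, Gm13162 and Vmn2r-ps19 and between genes, and the list does not count them. In Kap1 KO MEFs 5 of the 7 had an H3K27ac peak, a share near that of all shared regions (149 of 201), and Zfp423 and Zfp37 did not.

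The other lists had no shared region, where the share of all protein-coding genes, 0.484%, would give less than 1 gene in lists of this size. The shares over all genes to set beside the counts are 55.4% for H3K27ac at a start and 11.1% for H3K9me3. The 18 fibroblast genes had H3K27ac at a start in 15 and H3K9me3 in 0. Of 20 symbols of the H3K9 methylation machinery, 18 were found among the autosomal genes. All 18 had H3K27ac at a start, with H3K9me3 in 1, the remodeller gene Chd4. The 15 genes of p53 and the cell cycle likewise all had H3K27ac at a start, with H3K9me3 in 1, the tumour suppressor Rb1. Of 19 germline genes found from 22 symbols, 4 had H3K9me3, namely Dazl, Stk31, Sycp1 and Tdrd1. None of these 4 had H3K27ac at a start, but few genes of this list did, 2 of 19 (10.5%), Brdt and Tdrkh. The list is thus too small to show whether the marks exclude each other in it.

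The 10 meeting H3K9me3 peaks with the highest scores lay mostly away from transcript starts, as did 137 of all 201 shared regions. The highest, 1764.68, was in an intron of Rrp15, a ribosomal RNA processing gene, where an H3K27ac peak of 912 bp with a score of 64.27 lay inside 2725 bp of H3K9me3. This was the tandem repeat shown above. Next came a region between genes at chr6:71958893-71959077 (H3K9me3 score 1057.43, 185 bp shared) and one at chr17:80146711-80146728 (1035.77, 18 bp shared), 32310 bp from a start of Cyp1b1. Introns of Ccdc102a, of the calcium channel gene Cacna1a and of the tropomyosin gene Tpm1 had scores of 953.08, 720.61 and 572.49. A single one of the 10, with a score of 794.06, was at a transcript start, 91 bp from Lrrc10b. In 9 of the 10 the peaks overlapped in part.

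The 5 longest shared stretches outside these 10 had H3K9me3 scores between 61.93 and 197.65, beside a median of 90.1 for all meeting peaks. The longest, 3949 bp at chr6:47687095-47691043 between genes, had scores of 61.93 for H3K9me3 and 80.19 for H3K27ac. On chromosome 8, 2603 bp were shared at a start of 6820431F20Rik and 1782 bp at one of Gm10060, with H3K9me3 scores of 122.86 and 128.54 and H3K27ac scores of 3100 and 3180.24. The other 2 were 1506 bp between genes at chr6:47602576-47604081 (63.2) and the 1482 bp at 2610305D13Rik (197.65). The 5 were not all separate places. Further shared regions lay between the 2 on chromosome 6, and those on chromosome 8 were neighbours, at chr8:19783531-19785312 and chr8:19893082-19895684. Whether repeats lie under these regions was not tested.

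The lists of the other cells served as second readouts. An H3K9me3 peak of Kap1 KO MEFs overlapped 9 of the 200 meeting peaks, or 4.50% (2.08% to 8.37%), and 3.11% (2.83% to 3.41%) of the others, and the interval of the difference ran from -0.748 to 5.23 points. The Kap1 KO list of this mark was shorter, with 4319 peaks against 14425 over all chromosomes. Of the 201 regions, 143 had H3K27ac without H3K9me3 in Kap1 KO MEFs, 6 had both, 3 had H3K9me3 alone and 49 had neither. H3K27ac was found in Kap1 KO MEFs at 84.1% (77.9% to 89.1%) of the H3K27ac peaks that met H3K9me3 and at 77.0% (76.6% to 77.4%) of the rest, a difference of 7.07 points (1.04 to 11.7). The 5 kept regions with the highest H3K9me3 score in Kap1 KO MEFs were at Rrp15 (688.21), 6820431F20Rik (549.31), Tbc1d30 (178.38), Wnt7b (102) and Odz3 (90.28).

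KAP1 of Hepa 1.6 cells overlapped 57 of the 200 meeting H3K9me3 peaks, or 28.5% (22.4% to 35.3%), and 14.3% (13.7% to 14.9%) of the others, a difference of 14.2 points (8.40 to 20.9). At transcript starts the shares were 40.6% and 26.1%, and away from them 22.8% and 13.4%. Among the higher-scoring 50% of both lists, the difference was 9.43 points with an interval that included 0 (-0.591 to 22.0). The SETDB1 list, whose entries are also entries of the KAP1 list, gave 12.5% and 4.65%. Since 1 mark was read per library, both marks on the same allele, on different alleles or in different cells cannot be told apart.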

How the data were processed

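Peak lists of H3K9me3 and H3K27ac ChIP-seq in WT MEFs were used, with 1 library each. The authors deposited positions on mm9 and, for each peak, the score given by MACS 1.4 against total input, after mapping with Bowtie 2 (version 2.2.1 per the submitters' processing notes). The stated cutoff score is 80, but the MEF lists reach down to 50, and all autosomal peaks were kept. No read counts were used, so depth is unknown and signal under the threshold is not seen.

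H3K9me3 peaks were shuffled uniformly within their chromosome 10000 times, gaps included, and two-sided permutation p-values were taken (numba 0.67.0, numpy 2.4.6). The step was tested on simulated data, and overlaps were checked with bedtools 2.31.1. Genes were those of the GENCODE annotation of mm9. Shares carry Clopper-Pearson intervals at 95% and differences Newcombe intervals. Coordinates of 560 KZFP/rGUs, those with expression values in the study and fewer than its whole set, were used as annotation. The remainder were not used here. Sequences came from the NCBIM37 assembly, which is mm9. Sites described one by one were the 10 with the highest H3K9me3 score, the 5 with the most shared bases, all at listed imprinted genes, and the 5 highest at KZFP genes and among those kept in Kap1 KO MEFs. Zfp37, 2610036A22Rik and the further shared regions mentioned on chromosomes 4 and 6 were named beyond this rule, after their values were seen. The members and gene lists were chosen with earlier results of these data known. Expression and ES cell and liver libraries were not analysed here.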

Additional observations from a re-analysis of the deposited data

How the results depend on the processing

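The shortage of overlap kept its direction and its permutation p of 0.0002 in all alternatives run, 10 for H3K9me3 peaks, 9 for H3K27ac peaks and 8 for shared bases. One of them, without chromosome 8, was chosen after the data had been seen and gave 0.271-fold for H3K9me3 peaks. The distance results did not hold in this way. With each H3K9me3 peak moved within 500000 bp of its own place, the median distance was 1.19-fold and the number of near peaks 0.941-fold of the shuffles. With H3K27ac moved instead, they were 1.18-fold and 1.02-fold (permutation p = 0.37), and with near taken as 1 to 2000 bp the excess was 1.01-fold (permutation p = 0.86). The placement is what these alternatives change, and no further cause was tested. Among the 50% of peaks with the highest scores, the share at a transcript start was 42.4%. Genes with a shared region fell from 103 to 50 within 1 kb of a transcript start only, and to 59 at scores of at least 80, which keep fewer sites by construction. The differences in H3K9me3 kept in Kap1 KO MEFs changed sign, at -0.693 points for the highest 50% and -1.25 at scores of at least 80, and those over KZFP/rGUs did so at 0.155 and 0.476 points, each with an interval that included 0. No paired analysis was possible because each mark had 1 library, so no replicates could be left out.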

Other observations

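On the sex chromosomes, which were outside the comparisons, 0 of 152 H3K9me3 peaks overlapped any of 873 H3K27ac peaks, and a count of 0 allows up to 3.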
